A study of Mus musculus with 8 samples.

Results

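Tissue inhibitors of metalloproteinases (TIMPs) and the enzymes they restrain were followed through livers with blocked bile flow. The 9 genes are Timp1, Timp2, Timp3, Timp4, Reck, Mmp2, Mmp12, Mmp14 and Mmp19, taken by gene name from 53816 gene IDs. They were assembled around Timp4, which was picked with its levels in these same libraries in view. The differences between the groups and the co-variation over the libraries are therefore given as descriptions, with no test.

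The study sequenced liver RNA from 8 mice whose bile duct had been ligated, which causes cholestatic injury and scarring. Of these, 4 mice carried an overexpression of Myc in endothelial cells, with a genotype that names liver sinusoidal endothelial cells, and 4 were wild type. All 8 underwent the ligation, so no unoperated liver is part of the comparison. The sources used here give neither the driver of the Myc allele, nor age, nor time after surgery, and nothing says whether mice shared a litter or a batch. Values are TPM (transcript abundances scaled to a fixed total), which the authors computed and which correct for gene length, so levels of different genes can be set side by side.

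Matrix metalloproteinases (MMPs) are zinc enzymes that cut collagens, elastin and other matrix proteins and release signals bound to them. TIMPs block the active site of these enzymes, and in scarring liver Timp1 is a well known product of activated stellate cells and injured hepatocytes. The balance between both sides is studied as a determinant of how scar matrix builds up and is removed.

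Myc, the gene in the label, did not separate the groups: it ranged from 25.6 to 356 TPM in the Myc-labelled livers and from 89.2 to 554 TPM in the control livers. The groups are called Myc-labelled and control for that reason. Xist, transcribed from the inactive X chromosome of females, was at 10 TPM or more in 2 of 4 Myc-labelled and 3 of 4 control livers and under 1 TPM in the others. Both groups thus mix the sexes by this measure. The libraries held 5.29 to 6.74 Gb of aligned sequence. Myc-labelled replicate 1 stood apart, with the highest of 8 values for 5 of the 9 genes (Timp1, Timp2, Timp3, Mmp2 and Mmp14). Control replicate 2 held the highest Timp4 value and the lowest value of 4 genes (Timp2, Mmp2, Mmp12 and Mmp19). Myc-labelled replicate 2 was the only library with Cfd, an adipocyte gene, above 0, at 43.2 TPM, and its Adipoq level was 3.31 TPM against at most 0.314 TPM elsewhere.

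Across the 13055 genes averaging 1 TPM or more, limma called none at an adjusted p of 0.05 in either direction (0 genes, 0.0% of those tested). Without adjustment, 165 genes were higher and 78 lower at p under 0.05. With median-of-ratios scaling these counts were 166 and 172, and the median log2 difference of all genes was 0.0, against 0.037 without that scaling. By direction alone, 58.0% of all genes tested were higher in Myc-labelled livers. All 9 genes of the group were among those tested. Their log2 differences ran from -2.07 to 1.09 with a median of 0.12, and 5 of them were above and 4 below 0.

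The promoters of Timp4 and Reck are shown first because the levels of both genes moved together over the libraries. Those of Timp1 and Mmp12 follow, as the pair with the highest Pearson's r. Each is 300 bases, 5′ to 3′, from RefSeq on GRCm38.p6, with 250 bases before and 50 after the start site. Capitals mark a match to a searched motif. Of the 9 genes, 7 were found in that table, and Mmp2 and Mmp19 were not.
Timp4 (chr6:115252156-115252455, minus strand): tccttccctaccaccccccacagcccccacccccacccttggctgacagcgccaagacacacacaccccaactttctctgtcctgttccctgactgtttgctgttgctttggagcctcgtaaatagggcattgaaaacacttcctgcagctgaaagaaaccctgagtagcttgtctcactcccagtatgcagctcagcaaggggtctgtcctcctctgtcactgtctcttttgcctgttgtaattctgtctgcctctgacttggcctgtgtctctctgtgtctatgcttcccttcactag
Reck (chr4:43875280-43875579, plus strand): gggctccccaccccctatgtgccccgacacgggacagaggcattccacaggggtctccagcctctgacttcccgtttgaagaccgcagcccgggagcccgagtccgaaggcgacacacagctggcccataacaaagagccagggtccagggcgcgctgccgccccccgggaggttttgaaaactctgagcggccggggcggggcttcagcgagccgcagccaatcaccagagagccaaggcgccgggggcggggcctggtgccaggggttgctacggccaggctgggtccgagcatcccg
Timp1 (chrX:20869916-20870215, plus strand): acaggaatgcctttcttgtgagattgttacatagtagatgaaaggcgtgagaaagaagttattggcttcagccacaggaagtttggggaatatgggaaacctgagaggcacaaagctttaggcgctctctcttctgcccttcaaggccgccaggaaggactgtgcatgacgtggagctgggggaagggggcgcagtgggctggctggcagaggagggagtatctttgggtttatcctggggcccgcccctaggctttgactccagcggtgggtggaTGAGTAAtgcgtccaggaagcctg
Mmp12, second listed start site (chr9:7347124-7347423, plus strand): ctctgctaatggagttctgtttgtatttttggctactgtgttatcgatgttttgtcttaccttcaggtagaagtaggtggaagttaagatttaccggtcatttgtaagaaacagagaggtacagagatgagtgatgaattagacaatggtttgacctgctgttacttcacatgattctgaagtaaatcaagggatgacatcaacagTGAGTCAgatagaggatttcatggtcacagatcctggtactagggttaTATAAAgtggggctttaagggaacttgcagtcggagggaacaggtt

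The motifs, searched on both strands, were the AP-1 site TGANTCA, its variant TGAGTAA, the Myc E-box CACGTG and the TATA box TATAAA, with the variant added after reading the Timp1 promoter. No letters of these motifs overlap in the windows shown. The Timp1 window holds TGAGTAA, which begins at base 27, counting the start site as base 1. That motif is found in 2.68% of all 32851 promoter windows of the same length. The second Mmp12 window holds TGAGTCA, a match to the AP-1 site, 44 bases before the start site. The AP-1 site is present in 7.81% of all windows. The same Mmp12 window holds TATAAA, present in 13.6% of all windows, from base 5 on. The first listed Mmp12 window (chr9:7344147-7344446), which is not shown, holds none of the searched motifs. The Timp4 and Reck windows hold none of these motifs. The Myc E-box, present in 7.15% of all windows, is in none of the 8 windows found for the 7 genes. GC content was 69.3% in the Reck window, 53.3% in the Timp4 window, 55.0% in the Timp1 window and 40.7% in the second Mmp12 window.

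Timp4 (ENSMUSG00000030317.8, chromosome 6, 115241892 to 115252205, mm10, minus strand) encodes the TIMP best known from heart and brain. It measured 1.02, 1.87, 1.5 and 0.202 TPM in Myc-labelled replicates 1 to 4, against 3.62, 23.0, 3.83 and 9.14 TPM in control replicates 1 to 4. Every Myc-labelled liver lay below every control liver, with Myc-labelled replicate 4 the lowest and control replicate 2 far above the other controls. Such a separation toward lower values occurred in 0.322% of the 13055 genes tested. Timp4 was chosen on this contrast, so nothing is read from that share. The means were 1.15 ± 0.722 TPM in Myc-labelled livers and 9.90 ± 9.10 TPM in control livers (SD, n = 4 each). The log2 difference was -2.07 ± 0.52 (SE) after adding 1 to each TPM value, a step that shrinks differences of low genes. Control means exceeded Myc-labelled means 8.61-fold with all libraries and 4.81-fold without control replicate 2, where the log2 difference was -1.58. The groups also lay apart on FPKM and after median-of-ratios scaling, which only rescale each of the same libraries as a whole. With Timp4 chosen on this contrast, these scales add no support. Leaving out a library cannot make separated groups overlap, so nothing is read from that step. Mean per-base coverage of Timp4 ran from 0.596 in Myc-labelled replicate 4 to 64.7 in control replicate 2, so the lowest value rests on few reads. In bulk tissue, fewer cells that express a gene and less RNA per cell cannot be told apart.

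**Figure D1:**
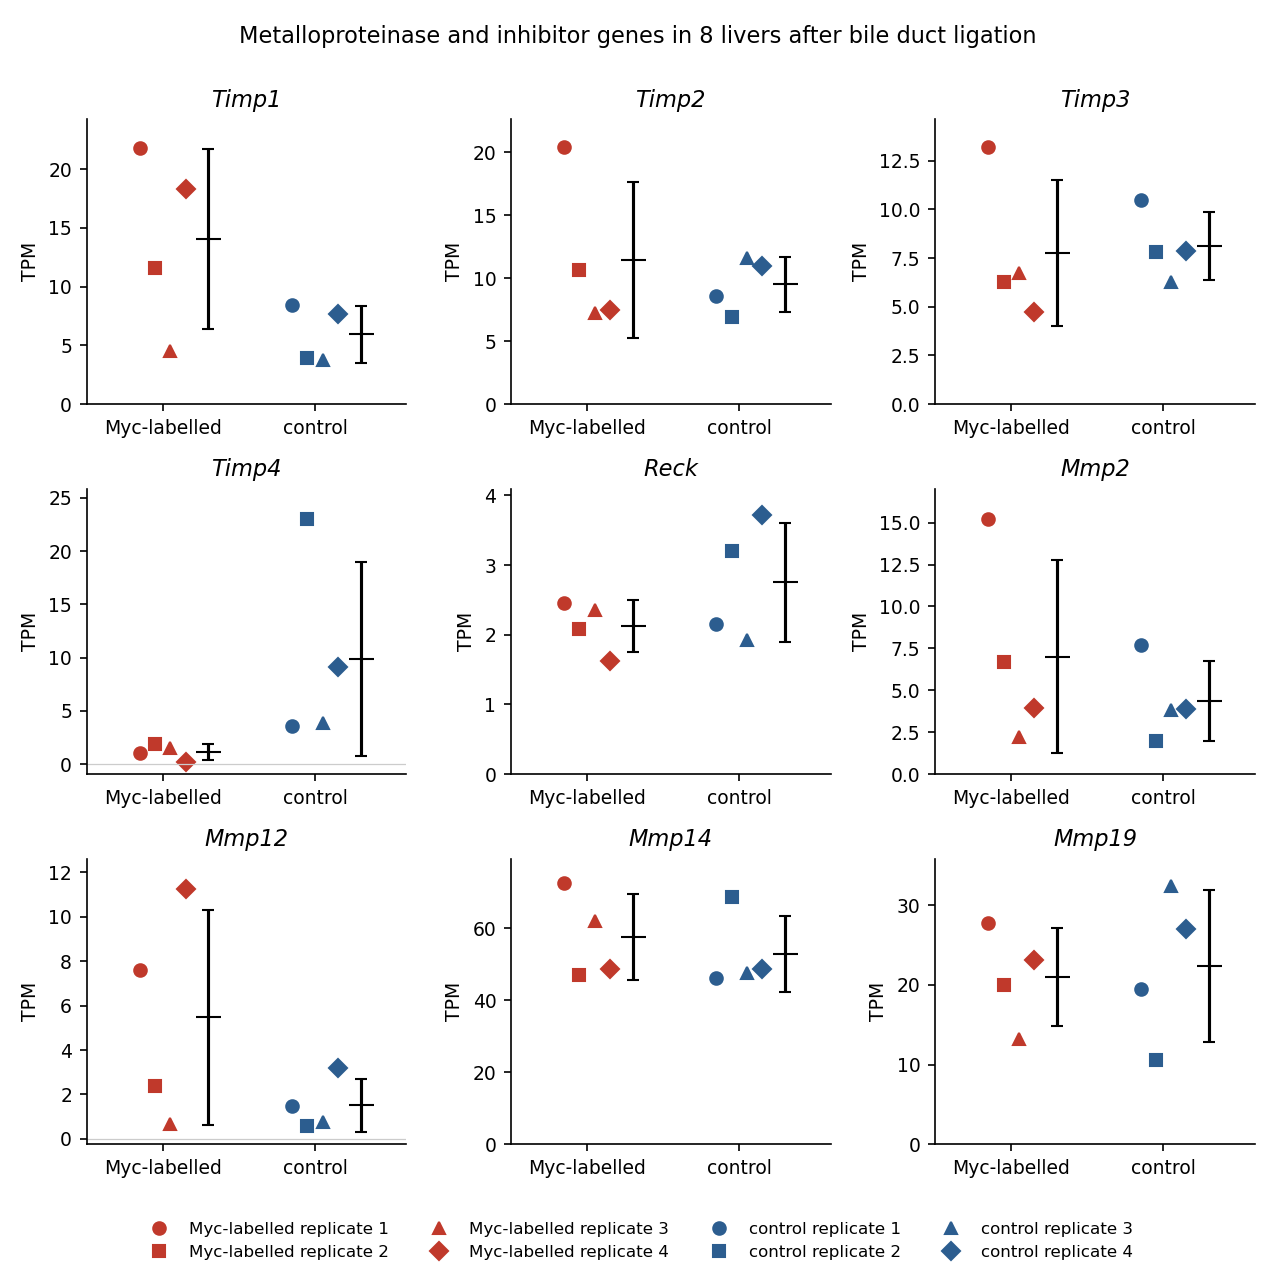
Level in TPM (y axis) of each of the 9 genes in 4 Myc-labelled (red, left) and 4 control livers (blue, right), 1 marker shape per replicate number, with the mean and SD in black. In the Timp4 panel the Myc-labelled livers lie between 0.202 and 1.87 TPM and the control livers between 3.62 and 23.0 TPM, while the other 8 panels overlap.

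Timp4 lies inside Syn2, the gene of synapsin II, on the opposite strand, and the sources used here do not state the read strand. Syn2 exons share 90 bases with the 5894 exon bases of Timp4 (1.53%). Syn2 measured 0.622, 1.13, 1.65 and 0.157 TPM in Myc-labelled replicates 1 to 4, against 0.798, 5.57, 0.858 and 2.37 TPM in control replicates 1 to 4. As for Timp4, Myc-labelled replicate 4 was lowest and control replicates 2 and 4 were highest, but the groups overlapped. Pearson's r between Timp4 and Syn2 was 0.90 over 8 libraries (Spearman's rho 0.79) and 0.98 for deviations from the group means. Without control replicate 2 and Myc-labelled replicate 4, the libraries farthest from the median of Timp4, r was 0.58. If the reads carry no strand, those of the opposite strands cannot be told apart where both genes are covered. The part of such reads in this relation was not tested. The log2 difference of Syn2 was -0.70 ± 0.42 (limma adjusted p = 1.0), with means of 0.889 ± 0.644 TPM in Myc-labelled and 2.40 ± 2.24 TPM in control livers.

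The arrangement of a TIMP gene inside a synapsin gene recurs for Timp1 in Syn1 and Timp3 in Syn3, each on opposite strands. Timp1 shares 0 of its 888 exon bases with Syn1, and Timp3 shares 1733 of its 8144 exon bases with Syn3 (21.3%). Syn1 stayed between 0.0627 and 0.468 TPM in Myc-labelled and between 0.282 and 0.588 TPM in control livers. Syn3 stayed between 0.129 and 0.431 TPM in Myc-labelled and between 0.336 and 0.672 TPM in control livers. Both hosts were too low to be tested. Pearson's r over 8 libraries was 0.22 for Timp1 with Syn1 and 0.20 for Timp3 with Syn3, below that of Timp4 with Syn2, and the difference was not tested. For deviations from the group means, r was 0.80 for Timp1 with Syn1 and 0.13 for Timp3 with Syn3.

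Reck (ENSMUSG00000028476.13, chromosome 4, 43875530 to 43944806) encodes a membrane-anchored inhibitor of Mmp2, Mmp9 and Mmp14 that also serves as a co-receptor for Wnt7 ligands. It measured 2.46, 2.09, 2.35 and 1.63 TPM in Myc-labelled replicates 1 to 4, against 2.16, 3.20, 1.92 and 3.72 TPM in control replicates 1 to 4. The groups overlapped, and the control libraries with the highest Reck, replicates 2 and 4, were also those with the highest Timp4. Its log2 difference was -0.24 ± 0.22. Pearson's r of Timp4 with Reck was 0.77 (rho 0.52), 0.75 within the groups and 0.59 without control replicate 2 and Myc-labelled replicate 4. Leaving out 1 library at a time gave r from 0.68 to 0.83. Reck ranked 88 of 10503 genes by likeness to Timp4, the closest of the other members.

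Timp1 (ENSMUSG00000001131.11, chromosome X, 20870166 to 20874735) encodes a secreted TIMP that is induced in scarring liver. It measured 21.8, 11.6, 4.52 and 18.3 TPM in Myc-labelled replicates 1 to 4, against 8.43, 3.95, 3.73 and 7.64 TPM in control replicates 1 to 4. Of the Myc-labelled livers, 3 lay above all controls, while replicate 3 lay among them. The means were 14.1 ± 7.63 TPM in Myc-labelled livers and 5.94 ± 2.45 TPM in control livers, with a log2 difference of 1.0 ± 0.44. Leaving out Myc-labelled replicate 1 gave 0.74. Leaving out Myc-labelled replicate 3 gave 1.42 and groups that did not overlap. Timp1 and Timp4 ran against each other, with r of -0.66 (rho -0.74). Within the groups r was -0.36, and it was -0.34 without Myc-labelled replicates 1 and 4.

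Timp2 (ENSMUSG00000017466.9, chromosome 11, 118301069 to 118355740) encodes the inhibitor that, bound to the membrane enzyme Mmp14, helps to activate Mmp2. It measured 20.4, 10.7, 7.25 and 7.44 TPM in Myc-labelled replicates 1 to 4, against 8.58, 6.91, 11.6 and 10.9 TPM in control replicates 1 to 4. Apart from Myc-labelled replicate 1 all livers lay between 6.91 and 11.6 TPM. The log2 difference was 0.15 ± 0.30 with all libraries and -0.15 without that replicate.

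Timp3 (ENSMUSG00000020044.13, chromosome 10, 86300372 to 86349506) encodes the TIMP that stays bound to the matrix and also blocks the sheddase Adam17. It measured 13.2, 6.26, 6.75 and 4.74 TPM in Myc-labelled replicates 1 to 4, against 10.5, 7.80, 6.28 and 7.89 TPM in control replicates 1 to 4. Myc-labelled replicates 1 and 4 held the highest and the lowest of the 8 values. The log2 difference was -0.13 ± 0.27. It was 0.04 without Myc-labelled replicate 4 and 0.00 with Xist as a covariate.

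The summed level of Timp1 to Timp4 did not separate the groups, but its makeup differed by library. The sum was 56.4, 30.4, 20.02 and 30.7 TPM in Myc-labelled replicates 1 to 4, against 31.2, 41.7, 25.4 and 35.6 TPM in control replicates 1 to 4. Timp4 supplied 0.66% to 7.51% of that sum in Myc-labelled livers and 11.6% to 55.2% in control livers. This share is built from the Timp4 values on which the gene was chosen, so nothing is read from its separation. Timp1 supplied 22.6% to 59.6% in Myc-labelled livers and 9.48% to 27.1% in control livers. Timp1 was the most abundant TIMP in Myc-labelled replicates 1, 2 and 4 and in no control. Without Timp4 the sum was 18.5 to 55.4 TPM in Myc-labelled and 18.7 to 27.5 TPM in control livers.

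**Figure D2:**
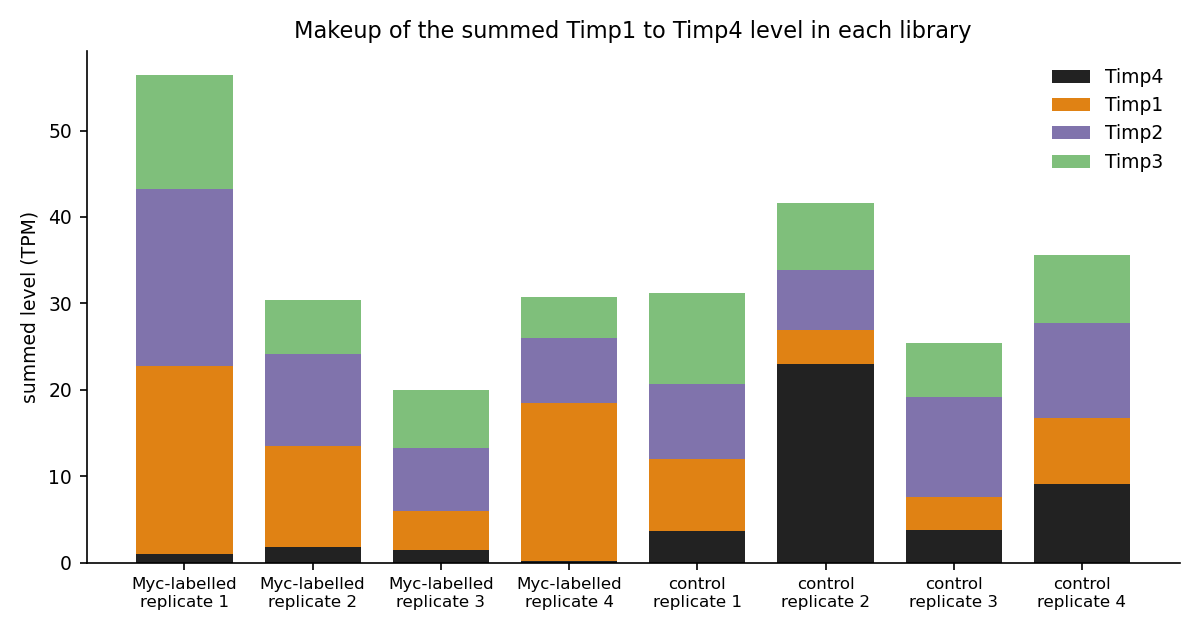
Stacked bars give the TPM of Timp4 (black, at the base), Timp1, Timp2 and Timp3 in each Myc-labelled (left) and control (right) library. Timp4, which was chosen on this contrast, forms at most 7.51% of the bar in Myc-labelled livers. It forms at least 11.6% in control livers, up to 55.2% in control replicate 2.

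Among the enzymes, Mmp14 (ENSMUSG00000000957.11, chromosome 14, 54431612 to 54445364), a membrane-bound collagenase that activates Mmp2, was the most abundant of the 9 genes in both groups. It measured 72.6, 47.1, 62.0 and 48.8 TPM in Myc-labelled replicates 1 to 4, against 46.2, 68.7, 47.5 and 48.8 TPM in control replicates 1 to 4. The spread from lowest to highest was 1.57-fold, the narrowest of the 9 genes, while that of Timp4 was 114-fold, the widest. Mmp14 had a log2 difference of 0.12 ± 0.20. Mmp14 formed 56.0% to 79.5% of the summed level of the 4 enzymes in Myc-labelled livers and 56.2% to 84.0% in control livers.

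Mmp19 (ENSMUSG00000025355.7, chromosome 10, 128790910 to 128800824) encodes a secreted enzyme that cuts basement membrane proteins. It measured 27.8, 19.9, 13.1 and 23.1 TPM in Myc-labelled replicates 1 to 4, against 19.5, 10.6, 32.4 and 27.1 TPM in control replicates 1 to 4. The Myc-labelled range lay wholly inside the control range, and the log2 difference was -0.03 ± 0.33. Tmem198b, on the opposite strand, shares 789 of the 3533 exon bases of Mmp19 (22.3%) and ranged from 2.71 to 4.96 TPM over the 8 libraries.

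Mmp2 (ENSMUSG00000031740.8, chromosome 8, 92827291 to 92853420), gelatinase A, is a product of stellate cells and fibroblasts. It measured 15.2, 6.72, 2.19 and 3.92 TPM in Myc-labelled replicates 1 to 4, against 7.69, 1.99, 3.84 and 3.89 TPM in control replicates 1 to 4. The groups overlapped, and Myc-labelled replicate 1 was high. On the log2 scale the difference was 0.42 ± 0.49 with all libraries and -0.01 without Myc-labelled replicate 1. Pearson's r of Timp2 with Mmp2 was 0.81 (rho 0.60), and 0.33 without Myc-labelled replicate 1 and control replicate 2.

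Mmp12 (ENSMUSG00000049723.14, chromosome 9, 7344381 to 7369499) encodes macrophage elastase. It measured 7.62, 2.40, 0.661 and 11.2 TPM in Myc-labelled replicates 1 to 4, against 1.48, 0.598, 0.746 and 3.20 TPM in control replicates 1 to 4. Myc-labelled replicates 1 and 4 lay above all controls, and replicate 3 lay among the lowest of them. Its log2 difference was 1.09 ± 0.61. It ran from 0.65, with Myc-labelled replicate 4 left out, to 1.61, with Myc-labelled replicate 3 left out. Mmp12 and Timp1 had the highest Pearson's r of the 36 pairs, while Timp2 and Mmp19 had the highest rank correlation. For Mmp12 with Timp1, Pearson's r was 0.93 (rho 0.83), 0.91 within the groups and 0.84 without Myc-labelled replicates 1 and 4. For Timp2 with Mmp19, rho was 0.91 and Pearson's r 0.69, and r was 0.73 without Myc-labelled replicate 1 and control replicate 2. Mmp1b, whose exons share 157 bases with the 7237 exon bases of Mmp12, was listed at 0 in all 8 libraries.

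**Figure D3:**
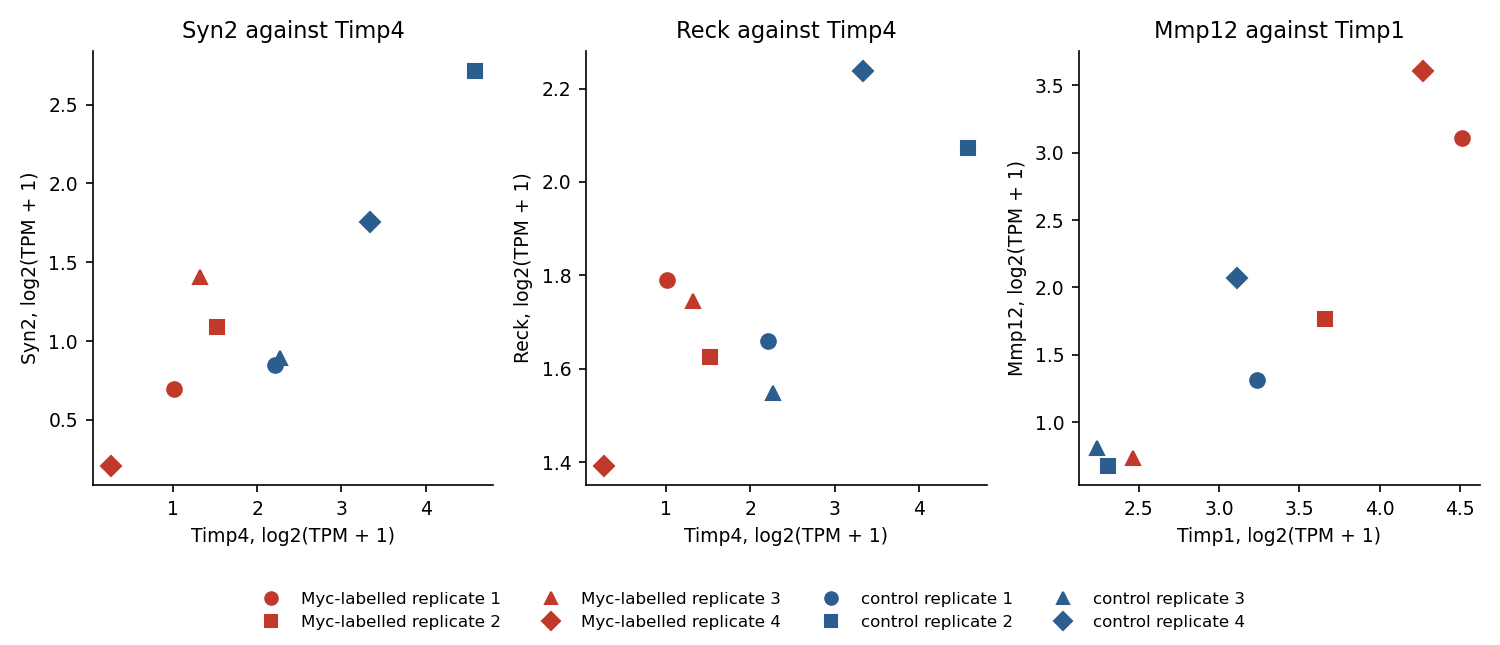
Each point is 1 library, red for Myc-labelled and blue for control, on log2(TPM + 1) axes, with Timp4 against Syn2 (left) and Reck (middle) and Timp1 against Mmp12 (right). Pearson's r is 0.90, 0.77 and 0.93, and control replicate 2 and Myc-labelled replicate 4 mark the ends of the Timp4 axis.

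The 4 enzymes together summed to 76.2 to 123 TPM in Myc-labelled livers and 74.9 to 84.5 TPM in control livers. The ratio of the TIMP sum to this sum averaged 0.367 ± 0.085 in Myc-labelled and 0.414 ± 0.086 in control livers (SD, n = 4 each), a difference smaller than either SD. In order of mean level, the Myc-labelled livers ran from Mmp14 through Mmp19, Timp1, Timp2, Timp3, Mmp2, Mmp12 and Reck to Timp4. The control livers ran from Mmp14 through Mmp19, Timp4, Timp2, Timp3, Timp1, Mmp2 and Reck to Mmp12. Timp4 was thus at rank 9 in Myc-labelled and at rank 3 in control livers. The control rank rests on control replicate 2. Without that library the control mean of Timp4 was 5.53 TPM, below Timp2 (10.4 TPM), Timp3 (8.23 TPM) and Timp1 (6.60 TPM). In both groups only the step between Mmp14 and Mmp19 exceeded the sum of the SDs of both genes.

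**Figure D4:**
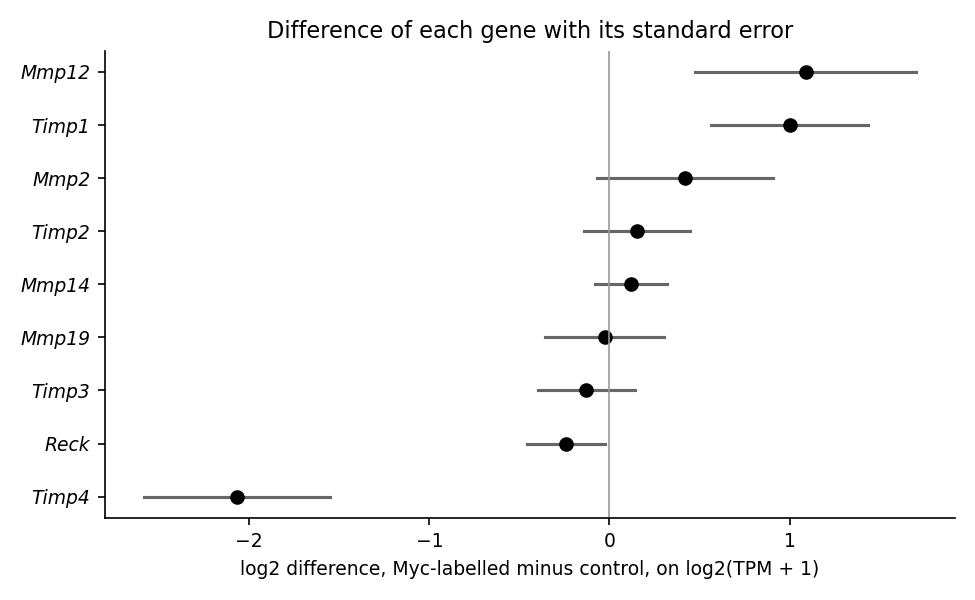
Points give the log2 difference of each gene, Myc-labelled minus control, on the log2(TPM + 1) scale, and lines its standard error from limma. Timp4 stands at -2.07 and the other 8 genes between -0.24 and 1.09.

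Over the 36 pairs of the 9 genes, Pearson's r ran from -0.66 to 0.93 with a median of 0.19, and 9 pairs were above 0.5 and 2 below -0.5. Timp2, Mmp2 and Mmp19 followed the stellate and myofibroblast list, with r of 0.94, 0.82 and 0.79 against its mean log2 level. Timp1 had r of 0.68 with that list, 0.76 with the cholangiocyte list and 0.69 with the neutrophil list. That list of 14 markers, such as Acta2 and Pdgfrb, summed to 126 to 277 TPM in Myc-labelled and 110 to 173 TPM in control livers. Of its 13 tested members 8 were higher and 5 lower by log2 difference, none past the threshold, and no marker of it was at 0 in all libraries. Its highest sum was in Myc-labelled replicate 1, the library with the highest Timp1, Timp2 and Mmp2.
Timp3 followed the sinusoidal endothelial list with r of 0.84 and the mesothelial list with 0.91. The 12 sinusoidal markers summed to 130 to 248 TPM in Myc-labelled and 187 to 264 TPM in control livers, with 2 of 12 higher and 10 lower, none past the threshold and none at 0 throughout. The 6 mesothelial markers summed to 7.04 to 36.5 TPM in Myc-labelled and 13.7 to 21.3 TPM in control livers, with 2 of 5 tested markers higher and 3 lower.
Mmp12 had r of 0.79 with the cholangiocyte list, 0.75 with the neutrophil list, 0.65 with the stellate list and 0.56 with the macrophage list. All r values with lists are over the 8 libraries, with none left out. For Mmp12 with Mmp9, a marker on the neutrophil list, r was 0.88, and 0.195 without Myc-labelled replicates 4 and 1. The 10 neutrophil markers, which include Mmp9 and Mmp8, summed to 29.5 to 165 TPM in Myc-labelled and 15.5 to 73.3 TPM in control livers. All 9 tested neutrophil markers were higher by log2 difference, against 58.0% of all genes, with none past the threshold. The 10 cholangiocyte markers summed to 135 to 987 TPM in Myc-labelled and 113 to 342 TPM in control livers, with 7 of 8 tested markers higher. The 14 macrophage markers summed to 552 to 1189 TPM in Myc-labelled and 767 to 1535 TPM in control livers, with 6 higher and 8 lower.
Timp4 followed none of these lists above 0.39, its r with the sinusoidal endothelial list, and stood at -0.62 with the cholangiocyte list. The part of cell makeup in any of these levels was not tested.
The adipocyte list reached its highest sum in Myc-labelled replicate 2, at 64.3 TPM, where Timp4 had the highest of the Myc-labelled values, 1.87 TPM. The log2 difference of Timp4 was -2.23 without that library. In Myc-labelled replicate 1 the list summed to 42.8 TPM and Timp4 was at 1.02 TPM. Over the 8 libraries, r of Timp4 with the mean of the adipocyte list was -0.25. Of 8 pancreatic acinar markers, 6 were at 0 in all libraries.

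**Figure D5:**
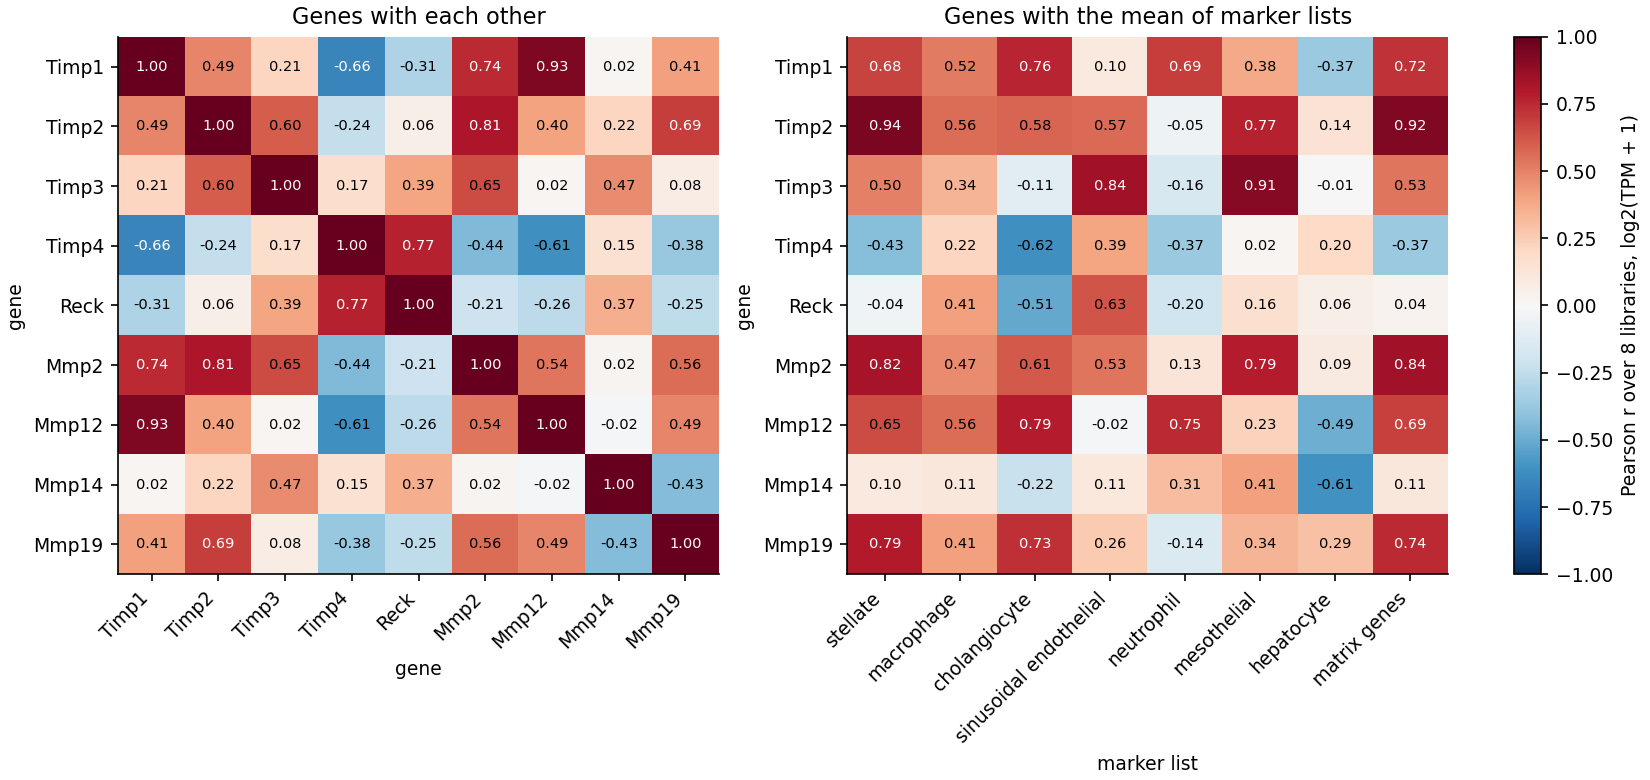
Each cell gives Pearson's r over 8 libraries on log2(TPM + 1), between the 9 genes (left) and between each gene and the mean of a marker list (right). Timp1 with Mmp12 reaches 0.93 and Timp2 with the stellate list 0.94, while Timp4 with Timp1 stands at -0.66.

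By likeness to Timp4 over the 8 libraries, among 10503 genes ranked (mean of 2 TPM or more), the closest was Slc8b1, a mitochondrial sodium and calcium exchanger, with r of 0.97. It ranged from 60.3 to 70.4 TPM in Myc-labelled and from 69.3 to 89.3 TPM in control livers. Next were Gtf2ird2 (0.95), Paip2b (0.92), Pwwp3a (0.91) and Tgm1 (0.90), a transglutaminase that ranged from 13.5 to 16.7 TPM in Myc-labelled and 13.7 to 34.6 TPM in control livers. Those most like Timp1 were Serpina7 (0.98), which encodes thyroxine-binding globulin, Tmem68 (0.96), Hspb11 (0.96), Sh3bp1 (0.96) and Mrps33 (0.96). Serpina7 ranged from 9.01 to 60.3 TPM in Myc-labelled and from 6.68 to 22.9 TPM in control livers. Those most like Timp3 were Arhgap5 (0.96), E2f5 (0.96), Mylip (0.95), Ss18 (0.95) and the mannose receptor gene Mrc1 (0.95), which is also on the sinusoidal endothelial list. Those most like Mmp12 were Fxyd5 (0.97), Arl8a (0.96), Exosc3 (0.96), Haus8 (0.96) and the glutathione transferase gene Gstp2 (0.96). Timp1 ranked 23 in that order.

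Of 92 other genes of the pathway, 63 were tested and 0 were called in either direction (0.0% of all genes tested were called), with 3 higher at an unadjusted p under 0.05, as were 1.26% of all genes tested. The groups did not overlap for 2 of the 63, Mmp9 and Plg, and for 1.26% of all genes. Among 19 further MMPs 7 were tested, 2 higher and 5 lower, with a median log2 difference of -0.21 against 0.037 over all genes. Mmp1a, Mmp1b and Mmp10 were listed at 0 in all libraries. Mmp9, the gelatinase B of neutrophils, measured 3.83, 1.99, 1.45 and 6.77 TPM in Myc-labelled replicates 1 to 4, against 0.936, 1.34, 1.25 and 1.26 TPM in control replicates 1 to 4. Every Myc-labelled liver lay above every control liver, a separation toward higher values found in 0.935% of genes. Its log2 difference was 0.90 ± 0.33 and did not pass (limma adjusted p = 1.0). Mmp7, matrilysin, made by bile duct epithelium, measured 28.1, 16.0, 3.29 and 3.72 TPM in Myc-labelled replicates 1 to 4, against 26.5, 15.9, 11.7 and 20.1 TPM in control replicates 1 to 4. Myc-labelled replicate 1 lay above and replicates 3 and 4 below the control range, and the log2 difference was -0.91 ± 0.64 (limma adjusted p = 1.0). The membrane-bound Mmp15 averaged 6.19 ± 2.70 TPM in Myc-labelled and 10.1 ± 5.98 TPM in control livers, and Mmp27 1.06 ± 0.532 TPM in Myc-labelled and 1.6 ± 0.435 TPM in control livers.

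Of 10 ADAM family genes, mostly of membrane-bound sheddases, 7 were tested, 5 higher and 2 lower (median log2 difference 0.19). Adam8, a leukocyte sheddase, averaged 3.67 ± 2.16 TPM in Myc-labelled and 1.82 ± 0.915 TPM in control livers, and Adam15 6.85 ± 0.910 TPM in Myc-labelled and 5.52 ± 1.21 TPM in control livers. Of 20 ADAMTS and related secreted enzymes 10 were tested, 2 higher and 8 lower (median -0.13). Adamts1, which cuts proteoglycans, averaged 10.2 ± 3.23 TPM in Myc-labelled and 6.08 ± 1.90 TPM in control livers. Adamts13, the von Willebrand factor protease made by stellate cells, averaged 0.864 ± 0.227 TPM in Myc-labelled and 1.57 ± 0.441 TPM in control livers. Neither passed (limma adjusted p = 1.0 for both).

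Of 23 activators, other inhibitors and partners 21 were tested, 14 higher and 7 lower (median 0.14). Cd63, a tetraspanin that serves as a cell surface partner of Timp1, measured 107, 51.5, 44.6 and 52.7 TPM in Myc-labelled replicates 1 to 4, against 32.0, 19.2, 46.7 and 24.4 TPM in control replicates 1 to 4. The groups overlapped only through Myc-labelled replicate 3 and control replicate 3 (log2 difference 1.03 ± 0.32, limma adjusted p = 1.0). Plg, the plasminogen gene whose product activates several MMPs, averaged 1428 ± 131 TPM in Myc-labelled and 1756 ± 131 TPM in control livers, without overlap (0.322% of genes separated toward lower values; log2 difference -0.30 ± 0.17, limma adjusted p = 1.0). The broad protease inhibitor gene A2m averaged 9.84 ± 15.2 TPM in Myc-labelled and 1.17 ± 1.53 TPM in control livers. A2m reached 32.5 TPM in Myc-labelled replicate 3 and at most 3.94 TPM in the other 7 livers.

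Of 20 matrix genes whose products these enzymes cut or that accompany scarring, 18 were tested, 15 higher and 3 lower, against 58.0% higher over all genes (median 0.16). The list summed to 793 to 1429 TPM in Myc-labelled and 969 to 1075 TPM in control livers. By this sum, Myc-labelled replicates 1 and 3 lay above all controls and replicates 2 and 4 below all of them. The fibrillar collagen gene Col1a1 averaged 23.6 ± 24.3 TPM in Myc-labelled and 11.1 ± 8.68 TPM in control livers, and Col3a1 40.9 ± 32.3 TPM in Myc-labelled and 22.5 ± 16.1 TPM in control livers. Col1a1 reached 58.8 TPM in Myc-labelled replicate 1 and 23.5 TPM or less elsewhere. Col5a1 averaged 5.55 ± 4.61 TPM in Myc-labelled and 2.86 ± 1.65 TPM in control livers. Timp2 followed the mean of this list with r of 0.92 and Mmp2 with r of 0.84.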

How the data were processed

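Liver RNA of 4 Myc-labelled and 4 control mice after bile duct ligation was sequenced from total RNA after mRNA library preparation (labels' protocols). The submitters' processing notes name HISAT2, StringTie and the mm10 build. Each table gives TPM, deposited by the authors and the unit used here, FPKM, also deposited by the authors, and coverage, a signal not scaled for depth per the file headers. Depth in Gb was derived from the commonest ratio of coverage to FPKM. Repeated rows of a gene ID (10 to 15 per library) were summed. Of the IDs 98.35% matched GENCODE M21, with the same coordinates, from which exon overlaps were counted. No pair of libraries held identical values.

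The 9 genes and all lists were chosen with earlier results of these data known. Myc-labelled and control libraries were compared by two-sided limma tests (version 3.58.1, R 4.3.3) with a trended, robust variance prior, on log2(TPM + 1), over genes averaging 1 TPM or more, Benjamini-Hochberg adjusted at 0.05. The procedure was tested on simulated data with known changes. Since nothing states separate litters or batches, p-values measure the spread between these libraries only. Outside the 9 genes, the text names up to 4 genes of a described list by smallest unadjusted p, the synapsins, exon-sharing genes and the 5 genes most like Timp1, Timp3, Timp4 and Mmp12 by Pearson's r, with clone and predicted-gene names left out of that ranking. A gene that this rule names is not reported here. Cfd, Adipoq, the genes at 0 and the marker examples were named after their values were seen. The choices varied were the filter on low values, the pseudocount (0.1 and 5), FPKM for TPM, the scaling, the variance prior, array weights, the replicate number as a block, Xist as a covariate, and each library left out in turn. Leaving out control replicate 2 and Myc-labelled replicate 1 together was added after seeing the data. Other computations used Python 3.11.15, pandas 2.3.3, numpy 2.4.6 and matplotlib 3.10.9.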

Additional observations from a re-analysis of the deposited data

Results flagged for a closer look

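Of 28 sets of 4 values examined, where chance alone marks about 1 in 20, 1 held a value far from the rest. Mmp14 stood at 68.7 TPM in control replicate 2, while the other control livers lay between 46.2 and 48.8 TPM. The Myc-labelled livers, at 47.1 to 72.6 TPM, spanned both. Without control replicate 2 the log2 difference of Mmp14 was 0.25. That library also had the highest Timp4 and Syn2 values of the 8.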

How the results depend on the processing

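The count of genes past the threshold was 0 in each direction under all 19 alternatives except array weights, which called 1 lower gene, Gm43305. No pathway gene was called under any of them. The log2 difference of Timp4 was negative under all 20 alternatives, but Timp4 was chosen on this contrast. With groups fully apart, leaving out libraries or changing the pseudocount, filter, variance prior, weights or block could not change that sign. A pseudocount of 5 gave -1.11 and one of 0.1 gave -2.88, which follows from the added constant. It ran from -2.37 to -1.58 when 1 library was left out and was -1.57 without control replicate 2 and Myc-labelled replicate 1. Pearson's r of Timp4 with Syn2 was 0.76 without control replicate 2. Timp1 kept a positive difference throughout (0.60 to 1.42), as did Mmp12 (0.58 to 1.61), and Reck a negative one (-0.35 to -0.12). Timp2, Timp3, Mmp2, Mmp14 and Mmp19 each changed sign under at least 1 alternative. Mmp14 did so with array weights only (-0.01), and Mmp19 reached 0.18 when control replicate 3 was left out. The mean share of Timp4 in the TIMP sum ran from 2.87% to 5.16% in Myc-labelled and from 17.5% to 32.0% in control livers with 1 library left out. Since that share rests on the chosen Timp4 values, nothing is read from the gap between these ranges. The ratio of TIMP to MMP sums ran from 0.336 to 0.403 in Myc-labelled and 0.382 to 0.451 in control livers. With the replicate number as a block 0 genes passed and the Timp4 difference stayed at -2.07, with an SE of 0.41 in place of 0.52. The SE of Timp1 was 0.235 in place of 0.435 and that of Mmp12 0.314 in place of 0.613. The SEs of Timp2, Reck and Mmp14 rose with the block. The numbers were not taken as pairs, since deviations of same-numbered libraries correlated at -0.06 to 0.13 and 1 of 8 libraries correlated best with its own number. Mmp12 and Reck were not tested at a mean of at least 5 TPM. With 4 libraries a group, the 95% interval of a gene's log2 difference reached 0.47 to either side at the median over all genes.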
